A study of Homo sapiens with 6 samples.

Results

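The ectodysplasin system consists of a ligand, EDA, its receptors EDAR and EDA2R, and the adaptor EDARADD that couples EDAR to signalling. These 4 genes, of 69292 in the count table, were chosen because ligand and receptor RNA was gained in the ridaforolimus-resistant line. The values of that line against the other groups are therefore given as a description, and only the comparison of the everolimus-resistant line with parental cells was tested, for EDA and EDAR, which had counts in both groups. RNA sequencing had been done on cells of MDA-MB-231, an established line from a triple-negative breast cancer, to follow acquired resistance to inhibitors of the kinase mTOR. The parental group had no drug by the protocol and DMSO by another label field. The everolimus group was a derivative kept for months in 20 µM everolimus, and the ridaforolimus group a derivative kept for months in 30 µM ridaforolimus. Both drugs are rapamycin analogs, and the doses were not matched. Each group had 2 libraries, with 13134567 to 15556246 counts per library. Every resistant line is 1 derivative under continued drug, so resistance, drug exposure and drift in culture cannot be told apart. Nothing states whether the 2 libraries of a group came from separate cultures, so p-values measure the spread between these samples, which may be technical.

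EDA is a membrane-bound member of the TNF superfamily that furin-type proteases release as a trimer. Splicing gives it a pair of main active forms: EDA-A1 binds EDAR, and EDA-A2 binds EDA2R, also called XEDAR. EDAR recruits EDARADD and, through TRAF6, TAB2 and the kinase TAK1 (gene MAP3K7), activates the IKK complex and NF-kB, while EDA2R binds TRAF proteins without EDARADD. The pathway is known for forming hair, teeth, sweat glands and mammary buds, and loss of EDA, EDAR or EDARADD causes hypohidrotic ectodermal dysplasia. EDA2R is also known as a target gene of p53.

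The forms EDA-A1 and EDA-A2 differ by a short stretch in the receptor-binding domain. In the gene models of GENCODE 29 (GRCh38), transcript EDA-203 encodes 391 residues and EDA-204 encodes 389, and the first holds 6 more bases, at positions 922 to 927 of its coding sequence. The stretch is shown because it decides which receptor is bound. The capitals mark the extra bases:
EDA-203: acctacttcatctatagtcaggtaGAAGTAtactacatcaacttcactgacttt
EDA-204: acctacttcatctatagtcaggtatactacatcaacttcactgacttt
The deposited counts are per gene, so the counts of EDA below do not show which form was made.

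Of the 4 members, EDA2R and EDARADD were matched in a RefSeq table of promoters (GRCh38.p14). The EDA2R window is printed because its RNA went from no count to a measurable level in the ridaforolimus line. It lies at chrX:66639220-66639519 on the minus strand, from 250 bases before to 50 bases after a transcript start at 66639269. Capitals mark, in order, a CCAAT box, a GC box, an E-box and an AP-1 element:
EDA2R promoter: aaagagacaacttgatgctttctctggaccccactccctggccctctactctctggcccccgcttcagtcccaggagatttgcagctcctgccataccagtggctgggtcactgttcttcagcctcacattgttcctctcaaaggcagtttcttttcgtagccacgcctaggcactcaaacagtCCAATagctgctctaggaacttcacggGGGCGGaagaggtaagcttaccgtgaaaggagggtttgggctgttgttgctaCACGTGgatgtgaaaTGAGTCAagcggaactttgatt
The motifs were chosen after the sequences were seen, were searched on both strands, and none of the marked matches overlapped another. The letters of the CCAAT box are its name, and 34.6% of 35116 windows of the same length held them. The GC box (GGGCGG) was held by 45% of these windows. The E-box (CACGTG) was held by 7.26%, and the AP-1 element (TGANTCA) by 7.71%. The GC content of the EDA2R window was 52.3% with 8 CpG, against a median of 58.7% and 14 CpG over all windows. A window at a neighbouring EDA2R start (66639078) shares part of these bases and had 6 GC boxes, 15 CpG and a GC content of 60.7%. These matches describe letters in the reference sequence, not bound sites. The files hold no promoter measurement.

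The ligand gene EDA (ENSG00000158813) spans chrX:69616067-70039469 on the plus strand (GRCh38, GENCODE 29), with 6999 exonic bases and 8 protein-coding transcripts among 13. Its counts were 9 and 15 in the parental libraries, 15 and 25 in the everolimus libraries, and 205 and 388 in the ridaforolimus libraries. Relative to the TMM-scaled library size (CPM), these were 0.688 and 1.06, 1.09 and 1.65, and 15.6 and 28.4. Both ridaforolimus libraries lay far above the other 4, and both everolimus libraries lay above both parental ones, the nearest of these by a small margin. The group levels were 0.872 ± 0.261 CPM in parental, 1.37 ± 0.4 in everolimus and 22 ± 9 in ridaforolimus cells (mean ± SD, n = 2 each). EDA was 24.9-fold higher in the ridaforolimus line than in parental cells (log2 4.64 ± 0.45, SE) and 15.9-fold higher than in the everolimus line (log2 3.99 ± 0.42, SE). These differences chose the gene and have no test here. The log2 difference between everolimus and parental cells was 0.64 ± 0.48 (SE; 95% interval -0.46 to 1.75), with an adjusted p of 0.746 in edgeR's quasi-likelihood test over 21223 genes. That test called 1 gene of all those tested (0.00471%), and EDA was not it. In 20.6% of all tested genes both everolimus libraries lay above both parental ones, so the order of the 4 low EDA libraries is a common one.

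The 2 ridaforolimus libraries differed from each other in EDA by more than counting error, with exact Poisson 95% intervals of 13.6 to 17.9 CPM and 25.6 to 31.3 CPM. Intervals and limits of this kind cover counting error only, since no molecular identifiers are stated. Genes lying inside the introns of EDA had few counts. A snoRNA model on the same strand (RF00012) had 1 count over the parental and everolimus libraries together, then 4 and 9 in the ridaforolimus libraries. CNOT7P1, a pseudogene on the opposite strand, had 1 count over those same 4 libraries, then 3 and 7. MIR676, a microRNA gene in the same introns, had 0 in every library. The kit was made for mRNA, so these counts do not show the levels of a snoRNA or microRNA. Reads of unspliced EDA RNA could not be told apart from those of RF00012.

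The receptor gene EDA2R (ENSG00000131080) spans chrX:66595637-66639298 on the minus strand, with 3579 exonic bases, and its start lies 2.98 Mb from that of EDA. It had 0 counts in both parental and both everolimus libraries, and 52 and 29 counts in the ridaforolimus libraries. These were 3.96 and 2.12 CPM, or 3.04 ± 1.30 (SD, n = 2). The groups did not overlap, and the library with more EDA2R was the one with less EDA. A total of 0 allows up to 3 counts, which is 0.110 CPM over the parental and 0.104 CPM over the everolimus libraries together. With the pooled ridaforolimus level taken as measured, EDA2R was therefore at least 27.5-fold higher in that line than in parental cells. Against the everolimus line it was at least 29.1-fold higher, again as a description. These bounds leave out counting error in the ridaforolimus libraries, whose 95% counting intervals were 2.96 to 5.2 and 1.42 to 3.04 CPM. A lower true level there would give a smaller fold. With 1 parental library left out these bounds became 14.2 and 13.1 against parental cells, and with 1 everolimus library left out 15.1 and 13.9 against the everolimus line, since the limit of 3 counts then rests on 1 library. With both at 0, no fold between everolimus and parental cells is given. EDA2R passed the filter on low counts only through the ridaforolimus group.

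The other receptor gene, EDAR (ENSG00000135960), spans chr2:108894471-108989372 on the minus strand, with 4426 exonic bases. Its counts were 14 and 15 in the parental, 16 and 14 in the everolimus and 19 and 12 in the ridaforolimus libraries. In CPM these were 1.07 and 1.06, 1.16 and 0.925, and 1.45 and 0.877. All 3 groups overlapped, with means of 1.06 ± 0.00924, 1.04 ± 0.165 and 1.16 ± 0.404 CPM (SD, n = 2 each). The log2 difference of the everolimus line from parental cells was -0.03 ± 0.47 (SE; 95% interval -1.10 to 1.04; adjusted p = 0.995, edgeR's quasi-likelihood test). The ridaforolimus line differed by 0.13 ± 0.47 from parental and by 0.16 ± 0.46 from everolimus cells (log2, SE). With 12 to 19 counts per library, a change in EDAR within that interval was not detectable at this depth.

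EDARADD (ENSG00000186197), the adaptor of EDAR, spans chr1:236348257-236502915 on the plus strand, with 3985 exonic bases. It had 1 count in 1 parental library and 0 in the other 5, and did not pass the filter on low counts. A library's limit of 3 counts is 0.198 to 0.229 CPM, so a library with 0 counts does not exclude expression up to that level. ENO1P1, a pseudogene that overlaps exons of EDARADD, had 0 counts in every library.

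**Figure D1:**
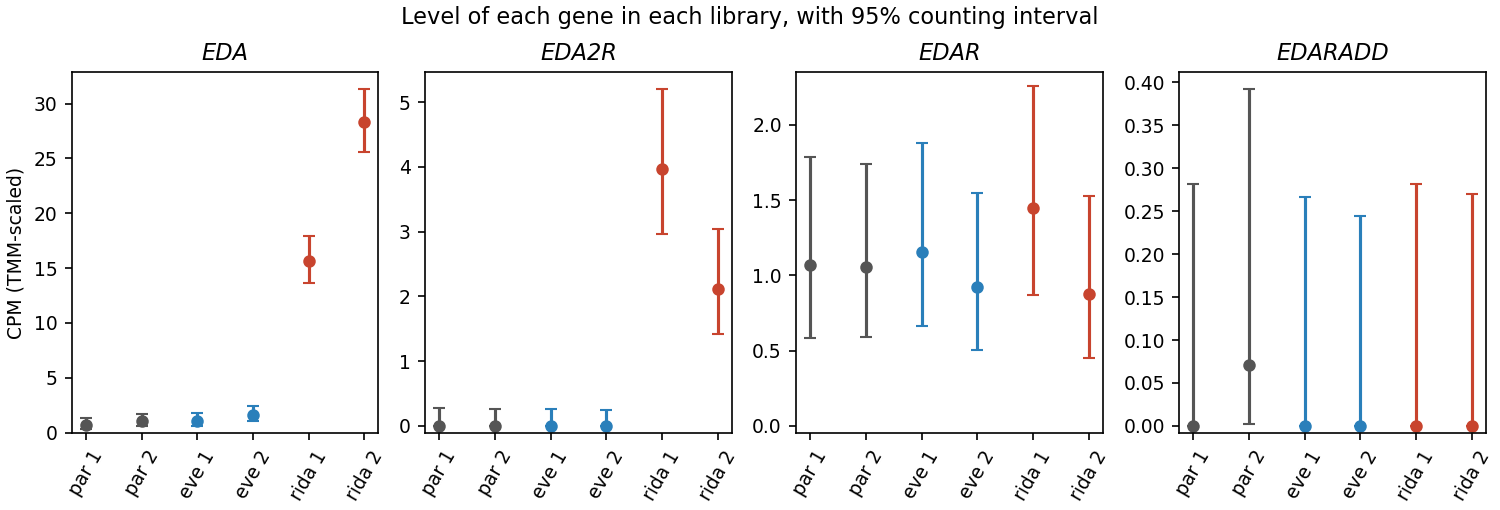
CPM of EDA, EDA2R, EDAR and EDARADD in each of the 6 libraries, with 1 panel per gene, points for libraries, error bars for exact Poisson 95% intervals and a linear axis of its own per gene. EDA and EDA2R are high in both ridaforolimus libraries, EDAR overlaps between all groups, and EDARADD has a single count.

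Read together, 3 of the 4 members passed the filter. Both ridaforolimus libraries lay above both parental and above both everolimus libraries for EDA and EDA2R and not for EDAR. Over all tested genes, such an order was found in 25.1% against parental and in 20.9% against everolimus cells, and calls at an adjusted p under 0.05 in 0.32% and 0.744%. Since the members were chosen on these contrasts, nothing is read from their count. Both contrasts use the same ridaforolimus libraries, and both comparisons with parental cells share the same controls.

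Per kilobase of exon, which allows levels of genes to be compared, parental cells had 0.240 CPM per kb of EDAR, 0.125 of EDA and 0 of EDA2R. Both parental libraries had more EDAR than EDA, with counting intervals that overlapped within each library. In the everolimus line the levels were 0.235 for EDAR, 0.196 for EDA and 0 for EDA2R, and the libraries of EDAR and EDA overlapped. In the ridaforolimus line the order was EDA at 3.14, EDA2R at 0.850 and EDAR at 0.263 CPM per kb, and none of these overlapped between libraries. EDA thus stood at rank 13 of 18 TNF superfamily ligands by level in parental, 11 in everolimus and 3 in ridaforolimus cells. The ligands above it in the ridaforolimus line were TNFSF9, which stimulates T cells, at 5.74 and TNFSF12, the TWEAK cytokine, at 4.4 CPM per kb. EDAR stood at rank 17 of 29 TNF receptors in every group, and EDA2R at rank 14 in the ridaforolimus line. TNFRSF12A, the receptor of TNFSF12, had the highest group mean of these receptors in each group, at 62.9 CPM per kb in ridaforolimus cells. Its libraries differed widely, at 90.5 and 132 CPM in everolimus and 168 and 64.6 CPM in ridaforolimus cells. That rank is of means and need not hold in each library.

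**Figure D2:**
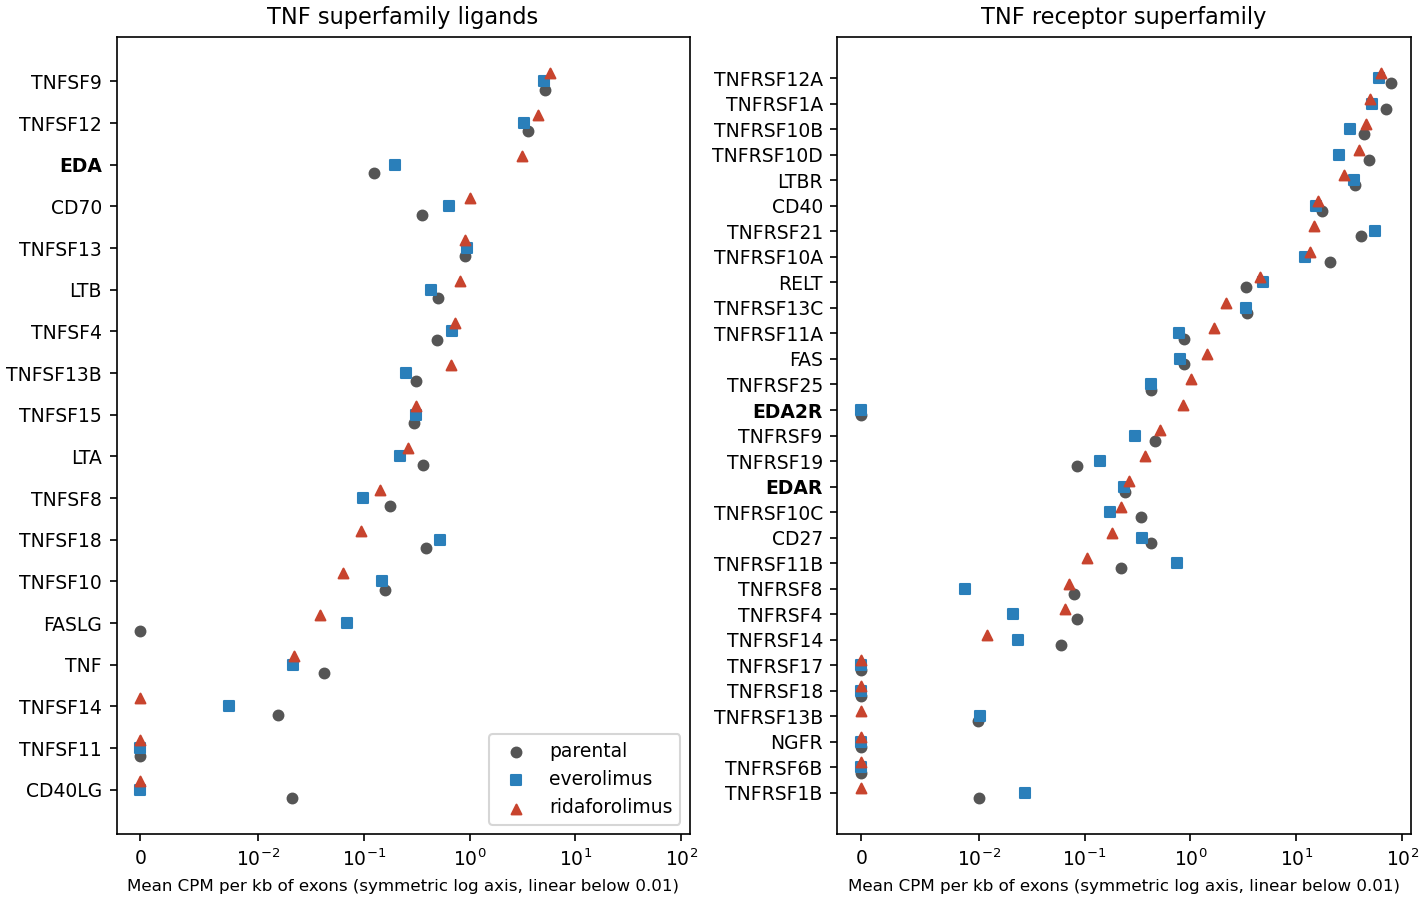
Mean level per kilobase of exon (CPM per kb, x axis, logarithmic with a linear stretch next to 0) of TNF superfamily ligands and receptors, 1 marker shape and colour per group. EDA moves from rank 13 of 18 ligands in parental cells to rank 3 in the ridaforolimus line, while EDAR stays at rank 17 of 29 receptors.

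The other genes of the TNF families were counted for comparison. Of 17 other ligands, 9 were tested and 0 passed the threshold in any of the 3 comparisons (edgeR), with median log2 differences of 0.04 in everolimus against parental, 0.31 in ridaforolimus against parental and 0.20 in ridaforolimus against everolimus cells. At an unadjusted p under 0.05 there were 0, 1 and 0 such ligands, and DESeq2 called 0. Over all tested genes those medians were 0.02, 0.02 and -0.02. Of all 21223 tested genes, 1866, 3082 and 3001 had an unadjusted p under 0.05 in the 3 comparisons (edgeR). DESeq2 called 147, 575 and 658 genes, and edgeR on every gene with a count called 493, 1195 and 1362. The counts of each list, here and below, are to be read beside these and are no result about the list. Of 27 other receptors, 16 were tested, and TNFRSF21 was the 1 that passed, in both ridaforolimus comparisons (edgeR). At an unadjusted p under 0.05 there were 4, 5 and 6 receptors in the 3 comparisons. DESeq2 called 0, 1 and 2, and edgeR on every gene with a count called 1, 2 and 3. TNFRSF21, the death receptor DR6, had 141 and 150 CPM in the parental, 180 and 216 in the everolimus and 48.8 and 55.9 in the ridaforolimus libraries. The ridaforolimus libraries lay below all others. TNFRSF21 fell by 1.48 ± 0.19 (log2, SE) against parental cells (adjusted p = 0.025, edgeR) and by 1.92 ± 0.20 against the everolimus line (adjusted p = 0.0116). The first call was lost with a replicate block and without either parental or either ridaforolimus library, at an adjusted p of up to 0.317. The second was lost without the second ridaforolimus library or with only the 2 groups in the fit. The fit of only those 2 groups called 0 of all genes.

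EDA has to be cut to act at a distance, and all 4 proprotein convertases listed were tested with 0 calls in any comparison (edgeR). FURIN, the main such protease, had 241 ± 50.4 CPM in parental, 167 ± 26.0 in everolimus and 227 ± 37.4 in ridaforolimus cells (SD, n = 2). PCSK5, a related protease singled out after its values were seen, had 2.29 and 2.47 CPM in the parental, 3.84 and 4.43 in the everolimus and 6.25 and 10.7 in the ridaforolimus libraries. Its libraries were ordered without overlap, and its log2 difference of 1.83 ± 0.36 (SE) between ridaforolimus and parental cells had an adjusted p of 0.0872 in edgeR's test. At an unadjusted p under 0.05 there were 1, 1 and 2 proteases in the 3 comparisons. DESeq2, and edgeR on every gene with a count, each called 1 of the 4 proteases in both ridaforolimus comparisons.

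The components between receptor and NF-kB were present in every group. All 18 adaptors and kinases listed were tested and 0 were called by edgeR in any comparison, with median log2 differences of -0.02, 0.06 and 0.05 in the order everolimus against parental, ridaforolimus against parental and ridaforolimus against everolimus. TRAF6, which carries the EDAR signal, had 28.7 ± 3.57 CPM in parental, 31.9 ± 6.32 in everolimus and 34.2 ± 4.99 in ridaforolimus cells (SD, n = 2). TAB2, which links TRAF6 to TAK1, was the most abundant of the list at 125 ± 18.0, 119 ± 0.330 and 117 ± 21.3 CPM. MAP3K7, the kinase TAK1, had 74.7 ± 3.58, 64.1 ± 1.90 and 59.6 ± 4 CPM, with a log2 difference of -0.33 ± 0.17 (SE) between ridaforolimus and parental cells (adjusted p = 0.433, edgeR). Each of these genes was measured in every library, and EDARADD was the component near 0. At an unadjusted p under 0.05 the adaptors and kinases had 1, 1 and 3 genes, and DESeq2 called 1 in the everolimus comparison and 0 in the others. Of 10 NF-kB subunits and inhibitors, 10 were tested and 0 called by edgeR or DESeq2 (0, 1 and 0 at an unadjusted p under 0.05), with medians of 0.05, 0.02 and -0.07. RELA, the main activating subunit, had 99.0 ± 9.42, 90.6 ± 9 and 89.1 ± 13.0 CPM.

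Of 24 NF-kB target genes, 23 were tested and 0 passed the threshold in any comparison (edgeR), with median log2 differences of 0.13, -0.02 and -0.17 in the same order. Several differed more between the 2 libraries of a resistant line than between lines. NFKBIA, the inhibitor that NF-kB itself induces, had 116 and 103 CPM in the parental, 262 and 70.8 in the everolimus and 76.8 and 254 in the ridaforolimus libraries. The chemokine gene CXCL8 had 24.5 and 26.7, then 81.9 and 7.60, then 42.3 and 129 CPM. In both, the first everolimus and the second ridaforolimus library were high, and the second ridaforolimus library was also the one with more EDA. In the everolimus pair the order was the other way, with 1.09 CPM of EDA in the first library and 1.65 in the second. Whether the NF-kB level of a library has a part in its EDA level was not tested. BCL2A1, a survival gene of the BCL2 family named after its values were seen, had 2, 0, 1 and 2 counts in the parental and everolimus libraries and 10 and 43 in the ridaforolimus libraries, with an adjusted p of 0.14 against parental cells (edgeR). At an unadjusted p under 0.05 there were 1, 1 and 3 target genes, and DESeq2 called 0, 0 and 1. On every gene with a count, edgeR called 4, 5 and 7 target genes in the 3 comparisons.

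Of 18 genes known as ectodysplasin targets in skin appendages, 10 were tested. SHH and DKK4, early targets in hair placodes, were among those with too few counts, SHH with 3 to 16 and DKK4 with 0 to 4 per library. FST, follistatin, which binds activin, was the 1 called gene. At an unadjusted p under 0.05 there were 2, 3 and 4 genes in the 3 comparisons. DESeq2 called 0, 0 and 2, and edgeR on every gene with a count called 1, 3 and 3. FST had 6.57 and 9.09 CPM in the parental, 14.1 and 35.4 in the everolimus and 3.81 and 2.48 in the ridaforolimus libraries. The ridaforolimus libraries were the lowest and the everolimus libraries the highest, and FST fell by 2.97 ± 0.48 (log2, SE) from everolimus to ridaforolimus cells (adjusted p = 0.0403, edgeR). Against parental cells its log2 difference of -1.32 ± 0.47 did not pass (adjusted p = 0.273). The FST call was lost in 9 of 14 other settings, among them leaving out any library but the first everolimus one, at an adjusted p of up to 0.228. The medians of the 10 genes were 0.23, 0.19 and 0.15, and with a filter at 5 CPM those of both ridaforolimus comparisons became -0.24 and -0.56. CCN2, connective tissue growth factor, the most abundant gene of the list, was not called.

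LEF1 is a WNT-dependent factor known to act upstream of EDA in skin, and 9 of 11 genes of that WNT list were tested with 0 calls by edgeR or DESeq2 and medians of 0.02, 0.29 and 0.16 (1 gene each at an unadjusted p under 0.05). LEF1 had 6.04 and 7.68 CPM in the parental, 3.91 and 14 in the everolimus and 15.1 and 12.1 in the ridaforolimus libraries. Its ridaforolimus and everolimus libraries overlapped, and the log2 difference from parental cells was 0.99 ± 0.51 (SE; adjusted p = 0.418). For EDA2R, the corresponding list is that of p53 targets, although MDA-MB-231 is known to carry mutant p53. Of 24 such genes, 23 were tested with 0 calls by edgeR or DESeq2 in any comparison (1, 2 and 6 at an unadjusted p under 0.05), and medians were -0.14, -0.16 and -0.13. CDKN1A, the cell cycle inhibitor p21, had 142 and 77.6 CPM in the parental, 54.1 and 51.3 in the everolimus and 102 and 73.6 in the ridaforolimus libraries. MDM2, the ligase that degrades p53, had 107 ± 12.1, 95.1 ± 13.1 and 106 ± 19.7 CPM. The ridaforolimus libraries, which had EDA2R counts, overlapped with the parental ones in both genes.

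**Figure D3:**
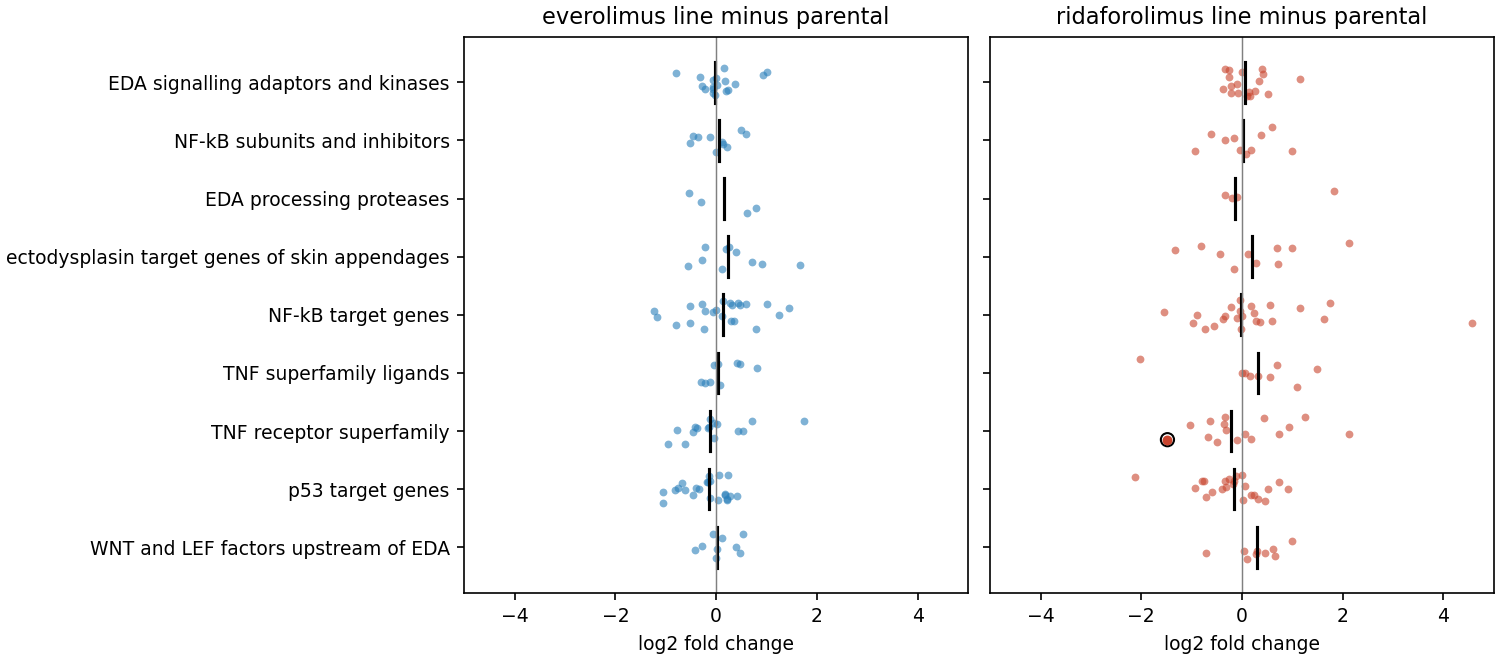
Log2 differences from parental cells of single tested genes (points) with list medians (vertical bars), for the everolimus and the ridaforolimus line in separate panels, and rings around called genes. List medians lie between -0.21 and 0.31, and TNFRSF21 in the ridaforolimus panel is the 1 ringed gene.

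The X-linked members were also compared with the genes around them. In the windows of 2 Mb on either side of EDA, 34 other genes were tested, and 33 of them had a positive log2 difference between ridaforolimus and parental cells, with a median of 1.29 and a highest value of 2.35. Of all tested genes, 51.3% were above 0. EDA, at 4.64, exceeded each of these neighbours. Of 586 other tested genes of the X chromosome, XIST left out, 5 had a larger log2 difference, and 4 of these lie from 8 Mb before to 20 Mb after the start of EDA. EDA was chosen for its gain in this contrast, so its place among the neighbours and on the chromosome follows in part from that choice. Both are given as a description only. Between everolimus and parental cells 15 of the 34 neighbours were above 0, with a median of -0.04. Genes beyond the neighbours were counted in a stretch from 8 Mb before to 20 Mb after the start of EDA. In it 93 of 94 genes had a positive difference between ridaforolimus and parental cells, with a median of 1.42. The limits of the stretch were read off the plot of these same values. The counts inside and outside it therefore depend in part on where they were drawn. Of 249 genes farther on, 44 were above 0, with a median of -0.64, and of 243 genes farther before, 133 were, with a median of 0.04. In everolimus cells the medians of these stretches were -0.01, -0.02 and 0. edgeR called 2 of the neighbours higher in ridaforolimus than in parental cells, and DESeq2 called 15. In the same comparison edgeR called 68 of all 21223 tested genes (0.32%), and DESeq2 called 575 genes. IGBP1, a phosphatase-binding protein, had 45.2 and 41.3 CPM in parental and 100 and 104 in ridaforolimus libraries and rose by 1.24 on the log2 scale (adjusted p = 0.0404). DLG3, a synaptic scaffold protein, had 36.1 and 39.6 CPM and then 95.5 and 104, and rose by 1.40 (adjusted p = 0.0356). Both calls were lost with a replicate block and with either parental or either ridaforolimus library left out, at an adjusted p of up to 0.458. PJA1, a ubiquitin ligase and the nearest tested protein-coding gene before EDA, had 18.5 and 16.2 CPM in parental and 35.8 and 37.3 in ridaforolimus libraries, with no overlap (log2 difference 1.08, adjusted p = 0.0925).

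Around EDA2R, 8 other genes were tested, of which 3 also lie in the window of EDA. All 8 had a positive log2 difference between ridaforolimus and parental cells, with a median of 1.03. ZC4H2, a zinc finger gene of neural development, had 10.3 and 10.2 CPM in the parental, 12.0 and 12.2 in the everolimus and 31.6 and 41.3 in the ridaforolimus libraries. Its ridaforolimus libraries lay above all others, and it rose by 1.83 against parental cells (adjusted p = 0.0211, edgeR), a call lost with a replicate block and without either parental or the second ridaforolimus library (adjusted p up to 0.317). MSN, moesin, which links actin to the membrane, had 780 and 685 CPM in the parental, 362 and 589 in the everolimus and 1440 and 1620 in the ridaforolimus libraries. Its log2 difference of 1.06 from parental cells was not called (adjusted p = 0.149, edgeR). LAS1L, next to MSN on the same side, had the smallest of the 8 differences, at 0.5 ± 0.23 (log2, SE; adjusted p = 0.373, edgeR). YIPF6, a tested protein-coding gene on the other side, had a log2 difference of 1.05 against parental cells (adjusted p = 0.0806, edgeR).

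The members on other chromosomes had neighbours of another kind. Of 27 tested genes around EDAR, 14 were above 0 between ridaforolimus and parental cells, with a median of 0.01 and 0 calls by edgeR, against 1 by DESeq2. RANBP2, a nuclear pore protein gene in that window, had 311 and 312 CPM in parental and 328 and 283 in ridaforolimus libraries. SH3RF3, a ubiquitin ligase gene 140 kb from the EDAR start, had 45.9 and 58.2 CPM in the parental, 49.8 and 44.4 in the everolimus and 22.4 and 25.8 in the ridaforolimus libraries. Its ridaforolimus libraries lay below all others, with log2 differences of -1.11 from parental (adjusted p = 0.0763) and -0.97 from everolimus cells (adjusted p = 0.0889, edgeR). Of 33 genes around EDARADD, 18 were above 0, with a median of 0.11 and 0 calls by edgeR, against 1 by DESeq2. RYR2, a calcium release channel in that window, rose by 3.37 ± 0.39 (log2, SE) from everolimus to ridaforolimus cells (adjusted p = 0.0137, edgeR). That call was lost without the second ridaforolimus library and with only the 2 groups in the fit, which called 0 of all genes. The positive shift of neighbours was thus seen around both X-linked members. Its part in the levels of EDA and EDA2R was not tested.

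**Figure D4:**
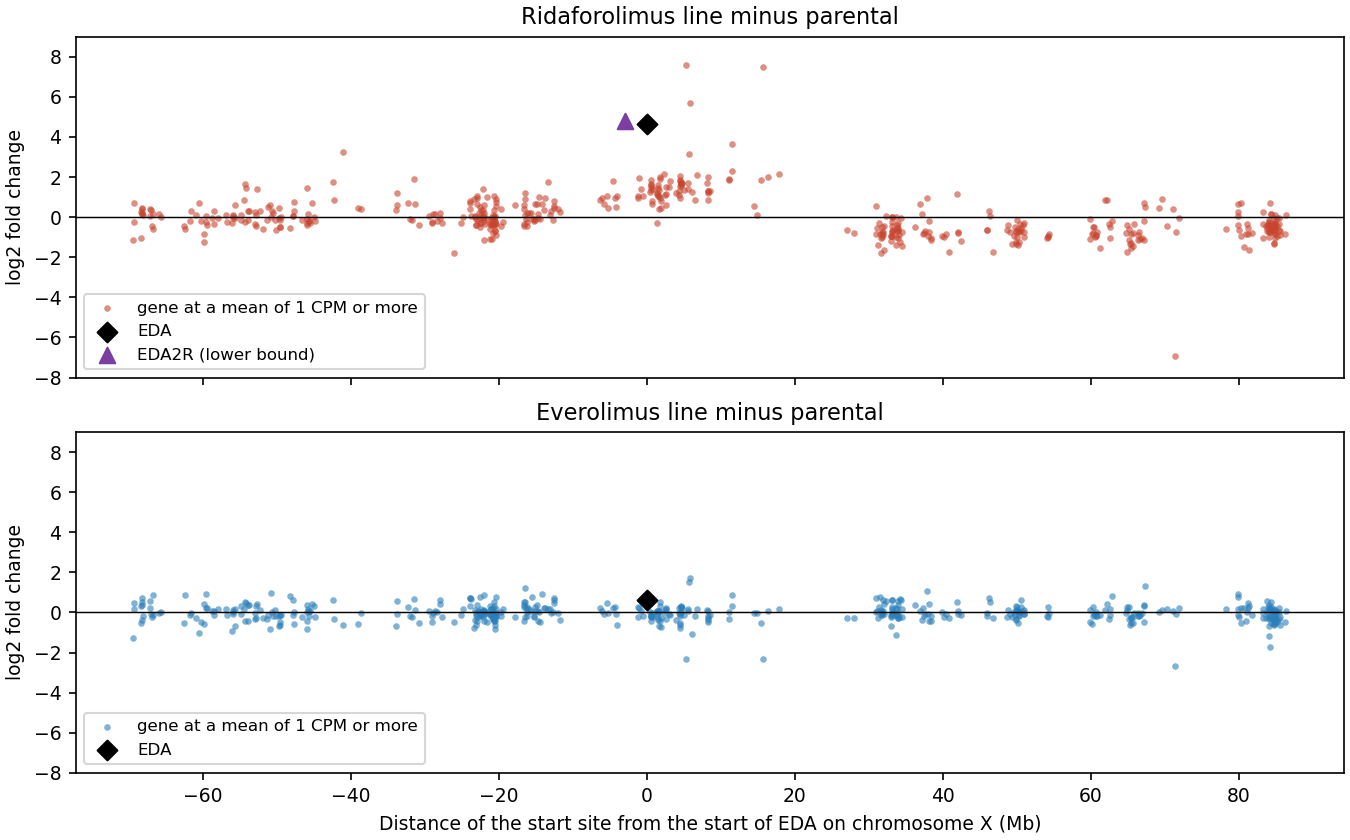
Log2 difference of each tested gene of the X chromosome at a mean of 1 CPM or more, XIST left out, against its distance from the start of EDA (Mb), for everolimus and ridaforolimus cells against parental cells. In the ridaforolimus panel the genes near EDA lie above 0 as a band and those beyond 20 Mb mostly below, while EDA and the lower bound of EDA2R lie above most of that band, with 3 genes of the stretch higher still.

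The genes most like EDA over the 6 libraries, by Pearson's r of log2 CPM among 5053 candidates, were EFNB1 (r = 0.9943), RPS4X (0.9943), ZC4H2 (0.9940), TRIM6 (0.9920) and NPAS2 (0.9905). EFNB1, ephrin-B1, is also the next such gene before EDA beyond PJA1. Those most like EDA2R were RLIM (0.9971), CHM (0.9908), MAGT1 (0.9892) and SNX12 (0.9889). Of the genes named here, 3 of 5 like EDA and 4 of 4 like EDA2R lie on the X chromosome, as do 4.65% of the candidates. For EDAR, the highest were KLHDC4 (0.9698) and ATP6V0C (0.9460). For EDA and EDA2R they describe the separation of 2 ridaforolimus libraries from 4 others, and so restate the contrast that chose these members. All of them share library depth and have no test.

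The cell identity was checked with marker lists. VIM, CD44, AXL, CAV1 and ZEB1, genes of mesenchymal triple-negative cells, were measured in every library, and the list summed to 1800 to 3090 CPM. SPARC, of the same list, had 0.0704 to 1.02 CPM. The 6 luminal genes summed to 30.6 to 124 CPM, with KRT19, a simple keratin, at 23 to 118 and ESR1, the oestrogen receptor, at 0.435 to 0.916 CPM. The 7 epithelial genes summed to 465 to 711 CPM. Of these, the simple keratins KRT8 and KRT18 had 263 to 428 and 107 to 219 CPM, the tight junction protein CLDN4 had 37.7 to 70.7, and the epithelial cadherin CDH1 had 0.229 at most. The 6 leukocyte genes summed to 1.22 to 2.83 CPM with CD3E at 0, and the 6 fibroblast genes to 6.52 to 16.4 CPM with LUM at 0. The 6 endothelial genes summed to 10.6 to 16.7 CPM in the parental and everolimus libraries and 13.4 and 28.2 in the ridaforolimus libraries, and ERG had no count. TIE1, an endothelial receptor, rose in ridaforolimus against parental cells (log2 4.15 ± 0.46, SE; adjusted p = 0.0145, edgeR). That call was lost without either parental or the second ridaforolimus library. TIE1 was also higher in everolimus than in parental cells, at a log2 difference of 2.73 that was not called. Between the resistant lines 0 endothelial genes were called. In bulk RNA, fewer cells of a type and less RNA per cell cannot be told apart.

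Markers of keratinocytes and hair follicles, the cells in which the pathway is best known, moved in part with EDA. Their 6 genes summed to 17.5 and 14.8 CPM in the parental, 9.85 and 12.5 in the everolimus and 28.3 and 23.6 in the ridaforolimus libraries. TP63, the master factor of basal epidermis, had 0.764 and 0.282 CPM in the parental, 0.362 and 0.595 in the everolimus and 16.8 and 16.1 in the ridaforolimus libraries. It rose by 4.97 ± 0.46 (log2, SE) against parental cells (adjusted p = 0.0109, edgeR), a call lost without either parental or the second ridaforolimus library (adjusted p up to 0.115). The basal and follicle keratins did not follow: KRT14, KRT1 and KRT75 had 0 counts in every library, and KRT5 had 9 and 6 counts in the parental, 4 and 6 in the everolimus and 0 in both ridaforolimus libraries. KRT10 had 9.48 ± 2.87 CPM in ridaforolimus cells, against 15.1 ± 1.38 in parental cells. Its log2 difference from parental cells was -0.67 in the ridaforolimus and -0.54 in the everolimus line, and -0.13 between the resistant lines, with no call. The part of these markers in the EDA levels was not tested.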

How the data were processed

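The authors deposited a table of raw read counts by Ensembl gene with a column for each library. Per the submitters' processing notes, the tools were STAR 2.7.9a, Trim Galore 0.6.6, DESeq2 and HTSeq 0.13.5, in no given order, with GRCh38 (hg38). The kit was TruSeq Stranded mRNA, per the labels' protocols. How strand was used, and with which annotation release, is not given in the sources used here, so counts of overlapping and antisense genes are uncertain. Symbols were matched for 62625 of 69292 IDs, and positions and exon lengths come from GENCODE 29 (58279 IDs).

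Groups were compared with edgeR 4.0.16 in R 4.3.3: TMM scaling, filterByExpr by group, and the quasi-likelihood test (glmQLFit, glmQLFTest) on a model of 3 groups over all 6 libraries with 3 residual degrees of freedom. The two-sided p was Benjamini-Hochberg adjusted over 21223 genes, with a threshold of 0.05. An exact permutation test of 2 against 2 libraries cannot go below 0.333. Alternatives were DESeq2 1.42.0, voom in limma 3.58.1, other scaling, other filters, a fit of the compared groups only, a replicate block and leaving out each library. Correlations used log2 CPM with a prior count of 2. Depth was 13134567 to 15556246 counts per library, and 3 counts are 0.198 to 0.229 CPM.

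The members and gene lists were chosen with earlier results of these data known. Genes named are the 4 members, called and most abundant genes of each list, the 2 nearest tested protein-coding neighbours on each side, and the 5 genes most like each member with a log2 range of at least 1. Genes of textbook roles in the pathway and markers are given as values, and were singled out beyond that rule. Some genes that the rule names are not reported here.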

Additional observations from a re-analysis of the deposited data

Results flagged for a closer look

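Several genes of the lists and of the neighbourhoods differed between the 2 resistant lines by edgeR's quasi-likelihood test of ridaforolimus against everolimus cells, which equals the difference of their changes from the shared parental libraries. Values are log2 differences of ridaforolimus minus everolimus cells. Among genes near EDA, the difference was 1.64 for DLG3 (adjusted p = 0.0173), 1.24 for IGBP1 (0.0326), 1.26 for SNX12, a sorting nexin (0.0368), 1.34 for TAF1, a subunit of the general transcription factor TFIID (0.0403), 1.25 for PJA1 (0.0499) and 1.29 for YIPF6, which also lies near EDA2R (0.0403). Near EDA2R it was 1.59 for ZC4H2 (adjusted p = 0.0298) and 1.68 for MSN (0.0403). Near EDARADD it was 3.37 for RYR2 (adjusted p = 0.0137). Each of these calls was lost with only the 2 groups in the fit. That fit called 0 of all genes in this comparison, so the loss says nothing particular about these genes. Of 14 other settings the call was kept in 12 for RYR2, 10 for DLG3, 7 for ZC4H2 and MSN, 6 for IGBP1, SNX12, TAF1 and YIPF6, and 3 for PJA1, with an adjusted p of up to 0.181.

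TNFRSF21 differed by -1.92 (adjusted p = 0.0116), FST by -2.97 (0.0403), and TP63 by 5.07 (0.0116). Among the markers, GATA3, a luminal transcription factor, differed by -2.38 and ESRP1, an epithelial splicing factor, by 1.79 (adjusted p = 0.0403 for both, edgeR). These calls too were lost with only the 2 groups in the fit, which called 0 of all genes. They were kept in 13 of 14 settings for TP63, 12 for TNFRSF21, 5 for FST and ESRP1, and in 5 of 13 for GATA3, with an adjusted p of up to 0.228. FST was higher in everolimus and lower in ridaforolimus than in parental cells, at 1.66 and -1.32, and RYR2 the other way, at -2.06 and 1.31; none of these 4 differences passed the threshold. With 1 everolimus and 1 ridaforolimus derivative, the drug and the derivative cannot be told apart.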

How the results depend on the processing

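The log2 difference of EDA kept its direction under all settings run: 4.15 to 4.99 for ridaforolimus against parental, 3.51 to 4.35 for ridaforolimus against everolimus and 0.30 to 0.99 for everolimus against parental cells, the last with an adjusted p of 0.568 to 1. Without 1 library the difference of EDAR moved between -0.29 and 0.45 against parental and between -0.25 and 0.49 against everolimus cells. The lower bound of EDA2R moved between 13.1 and 36.2 against parental and between 13.9 and 38.7 against everolimus cells, with the low ends where the limit of 3 counts rested on 1 library.

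The counts of called genes over all genes depended on the settings. They were 1, 68 and 158 in the everolimus, ridaforolimus and direct comparisons. With every gene with a count they were 493, 1195 and 1362, with DESeq2 147, 575 and 658, and with only the groups compared 0, 127 and 0. A filter at 5 CPM gave 0 and 81 in the everolimus and direct comparisons. Leaving out 1 library gave 0 to 3, 1 to 276 and 19 to 123 calls; the ridaforolimus comparison had the fewest without either parental library, and the direct one without the second ridaforolimus library. The cause was not tested.

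With a replicate block the counts were 0, 28 and 49. Deviations of libraries with the same number correlated at 0.33 (parental and everolimus), -0.17 (parental and ridaforolimus) and -0.19 (everolimus and ridaforolimus), so the numbers were not taken to pair the samples. A block with the 2 ridaforolimus numbers swapped, chosen after seeing the data, gave 150, 814 and 1044 calls.

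Over single called genes, 162 of 279 alternative values stayed past the threshold and 117 did not, and none reversed. Other scalings moved the median of all genes by less than 0.01. At 9 to 25 counts in parental and everolimus libraries, depth limits what can be said of EDA there, and likewise of EDAR in all groups.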

Other observations

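EDA2R was the 1 gene with 0 counts in the parental and everolimus libraries and at least 20 counts in both ridaforolimus libraries. That criterion was chosen after its values of 52 and 29 were seen, so EDA2R was bound to meet it. A large gain from a low level was not particular to EDA2R. On the X chromosome, MRPS22P1, IL13RA2, NEXMIF and POF1B had fitted log2 differences of 7.97, 7.94, 7.59 and 7.48 between ridaforolimus and parental cells. Their means over the 6 libraries were 0.751, 0.759, 2.95 and 2.74 CPM. With parental levels near 0, the size of such values depends on how the fit treats low counts. They are not comparable with the lower bounds given for EDA2R. TNFRSF11B, the decoy receptor osteoprotegerin, had 8 and 9 counts in the parental, 34 and 27 in the everolimus and 5 and 3 in the ridaforolimus libraries, with a log2 difference of -2.79 ± 0.53 (SE) between the resistant lines (adjusted p = 0.0651, edgeR's quasi-likelihood test). TNFRSF19, a receptor of the same family that is expressed in hair follicles, had 4 and 8 counts in the parental, 9 and 12 in the everolimus and 16 and 36 in the ridaforolimus libraries, without overlap between ridaforolimus and the rest, and an adjusted p of 0.179 against parental cells (edgeR). The choice of these receptors followed from their values.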
